A study of Mus musculus with 2 samples.

Results

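Prefix models are transcript models that share their first splice junctions with a longer model of the same gene and stop before its last junction, so their 3′ ends fall, in most cases, upstream of the end of the full transcript. They are a subtype of the incomplete splice matches that the TALON annotation tool assigns, taken here at annotated genes and without the spike-in RNAs. The replicate 1 library held 2127 of them among 81166 models and the replicate 2 library held 1243 among 74548, which is 3370 of 155714 models in all. All 3370 were placed, grouped by gene and by the start of the last exon, and their 3′ ends were joined where both libraries had an end within 25 bases, which gave 327 shared ends. A model has a single listed end for all its reads, so reads said below to end or stop at a site are reads of models listed there. Where each read itself ended is not known. The study sequenced long reads from total RNA of the gastrocnemius, a fast calf muscle, of female B6CASTF1/J mice aged 14 days, a first-generation hybrid of a laboratory and a wild-derived strain. Both libraries belong to 1 group with no treatment and no mutant allele, so no comparison between conditions exists, and differences below are between replicate 1 and replicate 2 of that group. One label of replicate 1 names 3x Females and the matching label of replicate 2 names a Female, so RNA of several animals may be pooled in replicate 1, and p-values below cover only the difference between these 2 libraries.

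The libraries differed in depth and in the length of their models. Replicate 1 held 1316937 reads, of which 1248854 fell on annotated genes, and replicate 2 held 1204188 reads, of which 1106450 did. Models of annotated genes were longer in replicate 1, where they averaged 2347 bases per read, than in replicate 2, where they averaged 1545. The 6 skeletal muscle markers took 29.4% and 21.8% of gene reads in replicates 1 and 2, with none at 0. Without Atp2a1, the other 5 took 17.8% and 18.2%, so the difference in the sum came from that gene. Single markers among the 5 still differed: Myh4 had 28804 and 12523 reads in replicates 1 and 2, and Mylpf 26620 and 39586. In the same order, Schwann cell markers took 0.0569% and 0.244% and fibroblast markers 0.791% and 0.339%. The part of model length and of these other cells in the values below was not tested.

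The 3′ end of most messenger RNAs is made by cleavage and polyadenylation. The CPSF complex binds a signal hexamer, most often AAUAAA, the RNA is cut shortly after it, and a tail of A bases is added to the new end. Many genes hold more than one such site, and a site inside an intron or an early exon gives a shorter RNA that can lack part of the coding sequence, while the U1 small nuclear ribonucleoprotein is known to hold many intronic sites in check. A primer of T bases can also anneal to an A-rich stretch inside an RNA, which gives a cDNA that stops there, and a read can stop at a splice junction for reasons of library making. The files do not tell these kinds of end apart, so ends are given below with their place in the annotation and, for chosen ones, the bases before or after them.

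Sequences of chosen shared Prefix ends are shown in sets, read 5′ to 3′ on the transcript's strand from GENCODE M21 transcripts on mm10. They are examples and do not stand for all ends of their kind. The first set shows the last 30 bases before early ends that lie at an annotated transcript end, with the hexamer AATAAA in capitals. Early means more than 25 bases before the most distal annotated end of the gene. For Pdlim7 (chr13:55506773-55506802, minus strand), Phf10 (chr17:14947738-14947767, minus strand), Gprc5c (chr11:114869066-114869095, plus strand) and Caprin1 (chr2:103767107-103767136, minus strand) 16 to 19 bases lay between the hexamer and the end. Atp2a1 (chr7:126445858-126445887, minus strand) is shown beside them as an end that is the gene's distal one.
Pdlim7: agcatggaAATAAAcattctcggccctgct
Phf10: tcaaaAATAAAtaagccaaaattgtttttg
Gprc5c: ggtgcctAATAAAtacatttctgctttatt
Caprin1: cactcAATAAAtacttgttgaatgaatgaa
Atp2a1: tttattgaaAATAAAtgacagaaaagtctg
Bmp1 and Slc25a23 ends had a large share of their gene's reads and neither AATAAA nor ATTAAA in the 50 bases before the end. Other hexamers were not searched. The Slc25a23 end lies at an annotated transcript end and the Bmp1 end inside an annotated exon. The last 30 bases are shown (chr14:70486639-70486668 for Bmp1 and chr17:57047051-57047080 for Slc25a23, both on the minus strand).
Bmp1: ctgtgacatttcctgttgtgaagtaaaaga
Slc25a23: ggccttcataaacccttcctcttgtctggg

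The second set shows ends inside coding exons that were followed by A-rich sequence, with the 30 bases before the end in lower case and the 20 bases after it in capitals. In Son (chr16:91654670-91654719, plus strand) 16 of the 20 following bases were A, and in Eif2s2 (chr2:154884358-154884407, minus strand) 17 were. The Son end lies away from annotated ends and held 27 and 40 Prefix reads in replicates 1 and 2. The Eif2s2 end is an annotated transcript end with only 1 and 2 Prefix reads, and models of annotated transcripts held 10 and 12 reads there.
Son: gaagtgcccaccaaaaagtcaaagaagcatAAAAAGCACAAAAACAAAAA
Eif2s2: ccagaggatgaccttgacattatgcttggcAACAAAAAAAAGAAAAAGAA
The third set shows ends at the last base of an annotated exon, where the capitals are the first 20 bases of the next exon as joined in the spliced transcript. Where several next exons are annotated, the most A-rich one is shown. Trdn ends in this way at position 33233926 of chromosome 10, Eif5b at 38021811 of chromosome 1, Sec62 at 30810026 of chromosome 3 and Pofut2 at 77260824 of chromosome 10, all on the plus strand, and 17, 12, 7 and 2 of the capitals were A.
Trdn: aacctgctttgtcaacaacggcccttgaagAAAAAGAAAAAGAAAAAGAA
Eif5b: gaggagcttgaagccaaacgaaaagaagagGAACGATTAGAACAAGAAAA
Sec62: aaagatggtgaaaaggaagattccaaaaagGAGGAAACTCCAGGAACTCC
Pofut2: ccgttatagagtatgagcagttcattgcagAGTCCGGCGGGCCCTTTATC

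Prefix models took a small share of the reads of annotated genes. They held 9151 reads, or 0.733% (Wilson 95% interval 0.718 to 0.748%, counting error only), in replicate 1 and 3591 reads, or 0.325% (0.314 to 0.335%), in replicate 2, a mean of 0.529% ± 0.289 (SD, n = 2). One Srl model held 2886 of these reads in replicate 1 (31.5%), and without Srl the shares were 0.504% in replicate 1 and 0.325% in replicate 2 and averaged 0.414% ± 0.126 (SD, n = 2). The 2127 models of replicate 1 lay in 1494 genes and the 1243 of replicate 2 in 1001 genes. Most were seen once: 77.3% of the models in replicate 1 and 77.2% in replicate 2 had a single read. Suffix models, which lack the first junctions in place of the last, were more common, with 17056 models and 6.74% of gene reads in replicate 1 and 12270 models and 8.99% in replicate 2. A Prefix read belonged to a model of 4272 bases on average in replicate 1, against 1827 in replicate 2.

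The name of the class was checked against the annotation, and most models met it. In replicate 1, 1626 models (76.4%) were the start of an annotated splice chain, and in replicate 2, 1006 (80.9%) were. By reads the picture was different, since those models held 33.6% of Prefix reads in replicate 1 and 54.9% in replicate 2. Of the 501 and 237 other models in replicates 1 and 2, 500 and 236 were the start of a longer model that TALON had built in the same library. The class therefore depends on which longer models a library holds. Early ends made up 1780 models (83.7%, with 46.2% of Prefix reads) in replicate 1 and 1069 models (86.0%, with 79.2% of reads) in replicate 2, at a median of 11448 and 11691 bases before the distal end. For comparison, 33.9% of Suffix models in replicate 1 and 37.0% in replicate 2 ended early by the same measure.

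**Figure D1:**
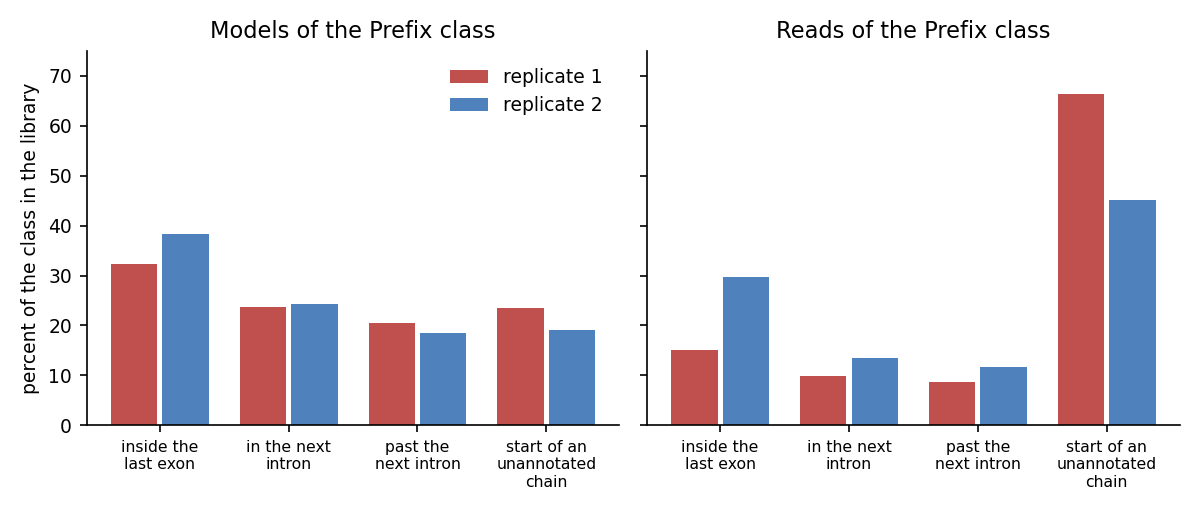
The bars give the percent of Prefix models (left panel) and of Prefix reads (right panel) in each library that ended inside the last exon they share with the annotated chain, in the next intron, past the next intron, or that start a chain not annotated. Starts of unannotated chains are 23.6% and 19.1% of models in replicates 1 and 2 but 66.4% and 45.1% of reads.

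The places where Prefix models stopped were spread over exons and introns. Inside the last shared exon ended 687 models (32.3%) in replicate 1 and 476 (38.3%) in replicate 2. A further 503 (23.6%) and 301 (24.2%) ran into the intron that the annotated chain would have removed next, by a median of 702 and 508 bases. Past that intron ended 436 (20.5%) in replicate 1 and 229 (18.4%) in replicate 2. At an annotated transcript end of the gene lay 879 models (41.3%) in replicate 1 and 512 (41.2%) in replicate 2, and 875 and 510 of these matched it to the base. Among Suffix models this share was 88.2% in replicate 1 and 88.1% in replicate 2. Where the chain had an annotated stop codon, 1170 of 1557 models in replicate 1 and 733 of 940 in replicate 2 ended before it. A single intron was left out in 556 models (34.2% of the starts of annotated chains) in replicate 1 and 365 (36.3%) in replicate 2.

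Of 2849 Prefix end sites, 327 (11.5%) held reads of both libraries, in 280 genes, and 290 of the 327 agreed to the base. They held 3188 Prefix reads (34.8%, Wilson interval 33.9 to 35.8%) in replicate 1 and 2217 (61.7%, 60.1 to 63.3%) in replicate 2. Without Srl the share was 50.9% in replicate 1 and 61.7% in replicate 2, and with a chain that is Prefix in either library counted in both it was 71.5% in each. Under the same joining rule 40.6% of Suffix end sites were shared, 34.8% of those of models with new combinations of known splice sites, and 27.4% of those with new splice sites. Shared sites were thin: 86 had 1 read in each library and 37 had at least 5 in each. The early ones numbered 260, in 221 genes, with 1853 reads in replicate 1 and 1622 in replicate 2, and the other 67 lay at the distal end of their gene. Of the 210 early sites whose gene had an annotated stop codon for the chain, 180 lay before it.

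Early shared ends were of 4 kinds. An annotated transcript end of the gene held 120 of the 260, with 1313 reads in replicate 1 and 1191 in replicate 2, and the transcripts ending there were annotated as protein coding at 53, as retained introns at 43, as processed transcripts at 15 and as targets of nonsense-mediated decay at 7. An annotated exon boundary held 89, with 298 and 258 reads in replicates 1 and 2. Inside an annotated exon lay 23, with 114 and 103 reads, and outside every annotated exon lay 28, with 128 and 70 reads. Ends near an annotated transcript end matched it to the base in nearly every model, so the equal positions of the libraries there are not separate measurements of the end. The 51 ends of the last 2 kinds, in 48 genes, are the ones away from annotated ends and boundaries of their own gene, though 2 lay at an annotated end of another gene and 3 had junction reads from the same base; 29 of them were equal to the base and 22 lay within 1 to 22 bases.

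**Figure D2:**
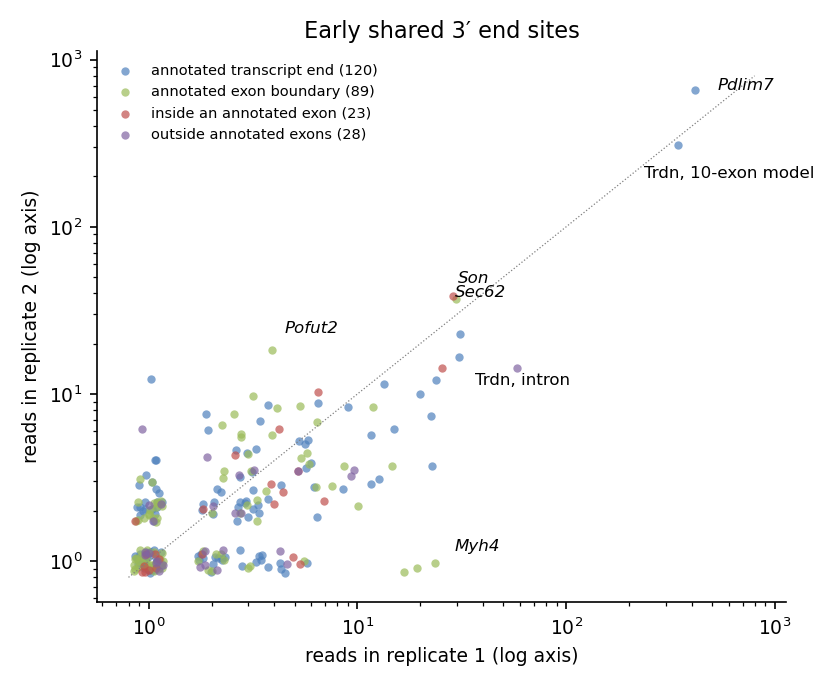
Each point is one of the 260 early shared end sites, with its reads in replicate 1 on the horizontal log axis and in replicate 2 on the vertical log axis, coloured by the kind of end; points are shifted by small random amounts so that equal counts can be seen, and the dotted line marks equal counts. Pdlim7 with 474 and 569 reads and the main Trdn site with 373 and 275 reads stand far above the crowd of sites with 1 to 10 reads.

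The kinds of end differed in how often the polyadenylation signal stood before them. The search was for AATAAA or ATTAAA on the transcript's strand in the 50 bases before the end. Of the 67 shared ends at the distal end, 62 (92.5%, Wilson interval 83.7 to 96.8%) had it, with a median of 15 bases between hexamer and end. Of the early ends at an annotated transcript end, 64 of 114 readable ones (56.1%, 47.0 to 64.9%) had it, with a median of 16 bases between them. The same windows of sites seen in 1 library held it at 250 of 571 (43.8%), and of all 123609 annotated transcript ends 32.7% held it. At exon boundaries 10 of 82 (12.2%) shared ends had it, 57 of 819 (6.96%) of those of 1 library and 2.07% of all 237160 annotated boundaries, and at the 10 shared ones the median between hexamer and end was 35 bases. For ends inside and outside annotated exons the check is void, since under 80% of the windows could be read from the transcripts.

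**Figure D3:**
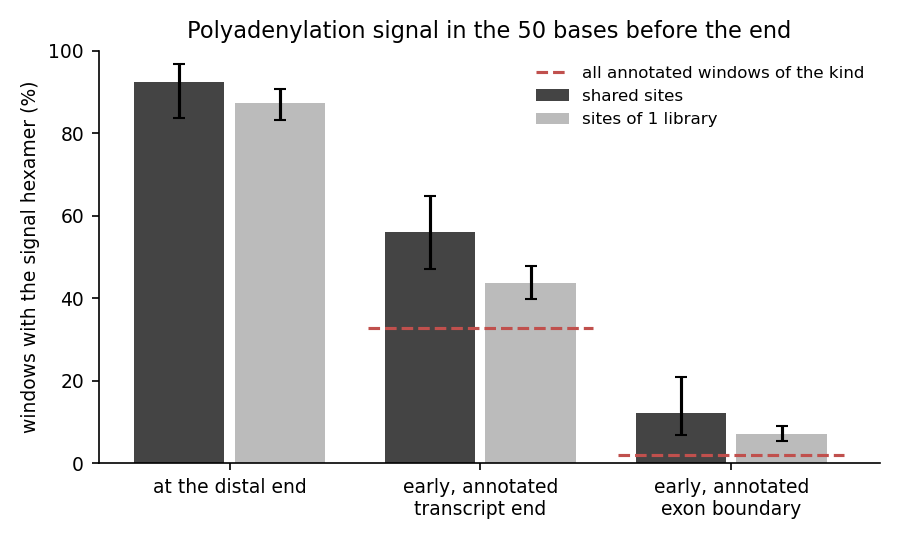
Bars give the percent of readable windows of 50 bases before an end that hold AATAAA or ATTAAA, for sites shared by both libraries and sites of 1 library, with Wilson 95% intervals. The dashed line at early transcript ends gives the share of all annotated transcript ends, distal ones included. That at exon boundaries gives the share of all annotated exon boundaries before the last exon. Shared sites stand at 92.5% at distal ends, 56.1% at early transcript ends and 12.2% at exon boundaries.

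A-rich sequence after the end was counted for each kind. Of the 23 shared ends inside an annotated exon, 3 (13.0%, 4.54 to 32.1%) had 12 or more A in the next 20 bases, those of Son, Map4 and 2700097O09Rik, beside 23 of 298 (7.72%) of those of 1 library. The sequence after an early transcript end could be read from another exon at 56 of 120 sites, so the check is void for that kind as a whole; among those 56, 13 (23.2%, 14.1 to 35.8%) had it, beside 39 of 324 (12%) of those of 1 library and 5.86% of the 43760 annotated ends of that place. After exon boundaries, the next exon was joined as in the spliced transcript, and the most A-rich one was taken where several are annotated. By that count 8 of 83 (9.64%, 4.97 to 17.9%) of the shared ends had it, beside 29 of 829 (3.50%) of those of 1 library and 0.991% of all 250062 annotated boundaries. These shares are therefore upper values, for all annotated boundaries too. Counted the same way, 3 of the 8 early transcript ends that are also an annotated exon boundary had it. The part of the A-rich sequence in these ends was not tested.

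Exon boundary ends were also set beside the reads spliced onward from them. Of the 89, 83 lay exactly at the last base of an annotated exon before an intron. At 75 of the 89, both libraries also held reads spliced onward from the same base as the end. A Prefix chain is by definition the start of a longer one, so such reads follow in part from the class. No such count is given for sites of 1 library. Models that cross such a junction and models listed as stopping at it were thus found side by side. Of the 209 early shared sites at transcript ends or exon boundaries, 199 were equal to the base between the libraries. Whether equal positions at boundaries are separate measurements of the end was not tested. In Sec62, which encodes a protein of the translocation channel of the endoplasmic reticulum, 26 of 101 reads (25.7%) stopped at the end of the exon in replicate 1 and 33 of 78 (42.3%) in replicate 2, and 71 and 42 reads were spliced from the same base. In Pofut2, an enzyme that adds fucose to proteins, 4 of 54 (7.41%) stopped in replicate 1 and 20 of 50 (40%) in replicate 2. In Eif5b, a factor that joins ribosomal subunits at initiation, 5 of 25 (20.0%) and 9 of 21 (42.9%) did in replicates 1 and 2.

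The early ends of the other classes of model were set beside those of Prefix models. At 75 of the 260 early shared sites (28.8%, 23.7 to 34.6%) both libraries also held models of other classes ending within 25 bases. Of the sites of 1 library, 240 of 2208 (10.9%) did. Shared sites have reads of both libraries by definition, and the read depth of the genes was not matched. The difference between these shares therefore says nothing about the ends themselves. Among the shared sites it was 53 of 120 (44.2%) at annotated transcript ends and 12 of 89 (13.5%) at exon boundaries. Inside exons it was 2 of 23 (8.70%) and outside them 8 of 28 (28.6%).

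In 13 genes an early shared end held at least 10% of the gene's reads in both libraries, out of 170 such ends in genes with at least 20 reads in each. Over all 260 early shared ends the median share was 3.24% in replicate 1 and 5.13% in replicate 2. The 13 genes do different things, and they are given here by the kind of end.

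**Figure D4:**
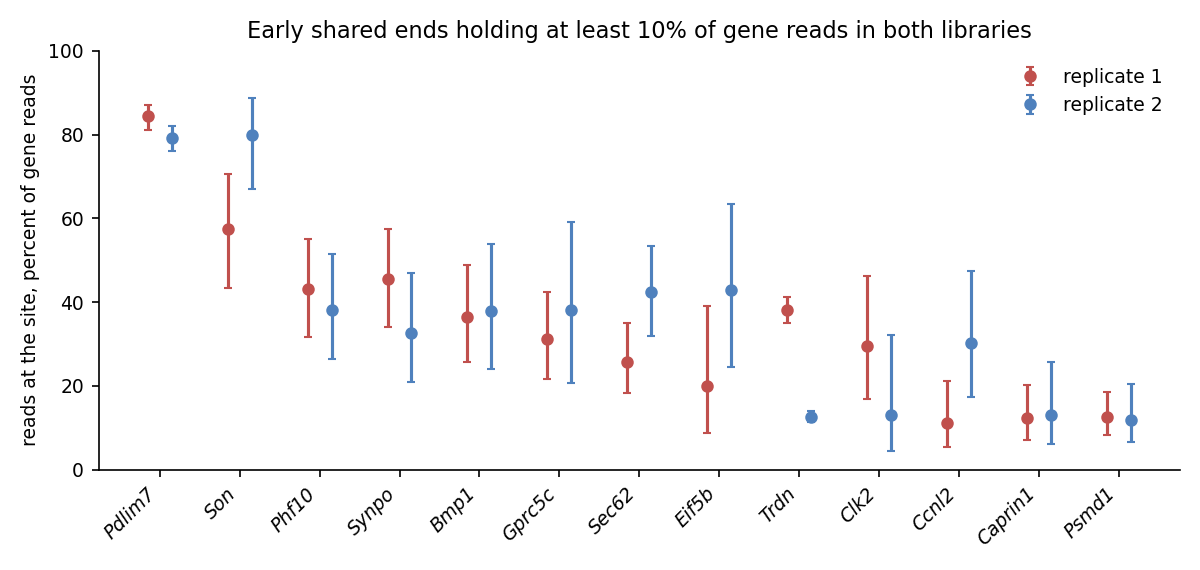
Points give the percent of a gene's reads in Prefix models listed as ending at its early shared site, for the 13 genes with at least 10% in both libraries. Bars are Wilson 95% intervals that cover counting error only. Pdlim7 stands highest at 84.3% and 79.1% in replicates 1 and 2, and the intervals of the libraries do not meet for Trdn.

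Among ends at annotated transcript ends, Pdlim7 led. The gene encodes an adaptor with PDZ and LIM domains that binds the actin cytoskeleton and sits at the Z disc of muscle. The end held 474 of 562 reads (84.3%) in replicate 1 and 569 of 719 (79.1%) in replicate 2, a mean of 81.7% ± 3.68 (SD, n = 2), 10978 bases before the distal end. With models of every class, 97.2% of Pdlim7 reads in replicate 1 and 97.5% in replicate 2 belonged to models whose listed end lay there. The chain is the start of a longer model of each library and of no annotated transcript.

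Phf10, a subunit of a chromatin remodelling complex, had 28 of 65 reads (43.1%) in replicate 1 and 21 of 55 (38.2%) in replicate 2 at the end of a transcript annotated for nonsense-mediated decay. Gprc5c, an orphan receptor of the cell surface, had 23 of 74 (31.1%) and 8 of 21 (38.1%) in replicates 1 and 2. Caprin1, an RNA-binding protein of stress granules, had 12 of 98 (12.2%) and 6 of 46 (13.0%). These 3 sequences carried the hexamer shown above, and each end lay beyond the boundary of the last shared exon, in the intron that the longer chain removes. Synpo, an actin-associated protein, ended in the same way with 30 of 66 reads (45.5%) in replicate 1 and 15 of 46 (32.6%) in replicate 2. Clk2, a kinase of splicing factors, had 10 of 34 (29.4%) and 3 of 23 (13.0%). In a gene with fewer reads, the calcium-regulated mitochondrial carrier Slc25a23, 27 of 34 (79.4%) ended early in replicate 1 and 11 of 17 (64.7%) in replicate 2.

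Psmd1, a subunit of the proteasome's regulatory particle, had 20 of 160 reads (12.5%) in replicate 1 and 10 of 84 (11.9%) in replicate 2 at an end inside its coding sequence that is annotated as the end of a nonsense-mediated decay transcript. Between the libraries the share was nearly equal, and the 2 intervals overlap.

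Among ends away from annotated ends, in genes with at least 20 reads in each library, Son and Bmp1 held the largest shares. Son encodes a large splicing cofactor of nuclear speckles, and 27 of 47 reads (57.4%) in replicate 1 and 40 of 50 (80%) in replicate 2, a mean of 68.7% ± 15.9 (SD, n = 2), ended 89 bases into exon 3 of the model, 24522 bases before the distal end. The end agreed to the base between the libraries and sits just before the A-rich run. Bmp1 encodes a protease that processes procollagen, and 23 of 63 reads (36.5%) and 14 of 37 (37.8%) in replicates 1 and 2, a mean of 37.2% ± 0.940 (SD, n = 2), ended inside an annotated 3′ UTR 12081 bases before the distal end. Ccnl2, a cyclin linked to splicing, had 7 of 63 (11.1%) in replicate 1 and 10 of 33 (30.3%) in replicate 2.

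The ends outside every annotated exon were mostly intronic and low. Eno3, the muscle enolase, had 9 and 4 reads in replicates 1 and 2 that ran 769 bases into an intron and ended at the same base. Jph1, which ties the transverse tubules to the sarcoplasmic reticulum, had 3 reads (2.40% of the gene) in replicate 1 and 3 (4.48%) in replicate 2 that ran 1331 bases past an exon and ended 2 bases apart. Mybpc1, a myosin-binding protein of slow fibres, had 9 and 3 reads at an intronic end. Inside a coding exon, Mef2c, a transcription factor of muscle differentiation, had 8 (4.71%) and 5 (5.21%) reads in replicates 1 and 2 at 1 end, over 2 last exons. With counts of this size the intervals are wide, and 15 of the 51 ends had 1 read in each library.

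Trdn held more shared ends than any other gene, 12 in all. It encodes triadin, an anchor of the calcium release complex in the junctional sarcoplasmic reticulum, and its long lumenal part is rich in lysine, whose codons are AAA and AAG. The main site, at the end of Trdn-206, held 373 of 981 reads (38.0%, 35.0 to 41.1%) in replicate 1 and 275 of 2182 (12.6%, 11.3 to 14.1%) in replicate 2. It is also the last base of an exon from which 260 reads in replicate 1 and 220 in replicate 2 were spliced onward. With all classes counted, models listed within 25 bases of this end held 582 reads (59.3%, 56.2 to 62.4%) in replicate 1 and 1642 (75.3%, 73.4 to 77.0%) in replicate 2. The order of the libraries is thus the opposite for all classes together. Prefix models were 64.1% of the reads there in replicate 1 and 16.7% in replicate 2, while Suffix models, which lack the first junctions, held 172 and 1326 reads.

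The other Trdn ends were far lower. Between the main site and the 5′ end, 3 exon boundaries held 14, 6 and 5 reads in replicate 1 and 4 in each case in replicate 2. Downstream, 7 ends at exon boundaries or transcript ends held 1 to 10 reads in replicate 1 and 2 to 4 in replicate 2. For the next exon, the most A-rich one was again taken where several are annotated. The A count in its first 20 bases was 8 to 11 at the 3 upstream ends, 17 at the main site and 9 to 15 at the 7 downstream ones. The last site lay in an intron, 4243 bases past the exon, with 58 reads (5.91%) in replicate 1 and 16 (0.733%) in replicate 2 that ended 4 bases apart. Of the 58, 49 belonged to 1 chain. In replicate 2 that chain was classed as a new combination of known splice sites, with 37 reads listed at position 33365367. A chain with 10 of the 16 reads had that class in replicate 1, with 11 reads. The counts at this site thus depend on class names and listed ends.

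**Figure D5:**
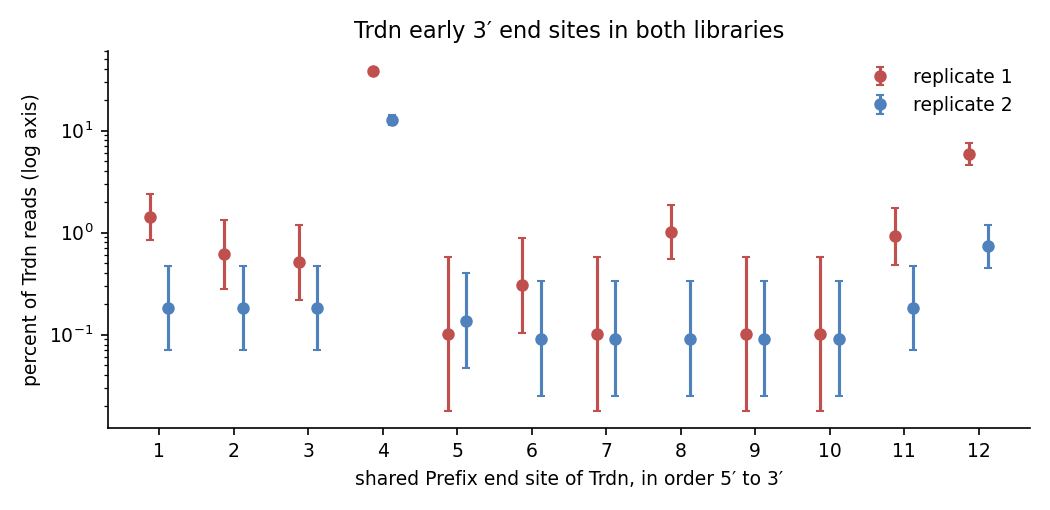
Points give the percent of Trdn reads (log axis) at each of its 12 shared Prefix end sites, ordered 5′ to 3′, with Wilson 95% intervals. The fourth site stands at 38.0% and 12.6% in replicates 1 and 2 and the twelfth at 5.91% and 0.733%, while the others are at or below 1.43%.

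Shared ends were also counted over lists of muscle genes. Of 12 genes of calcium handling, 6 had a shared site (Atp2a1, Trdn, Asph, Hrc, Jph1 and Casq1), with 22 sites of which 18 were early. Trdn held 12 of the 22 and Atp2a1 held 6, and the early ones lay in 4 genes. Of 16 thin and thick filament genes, 11 had a shared site, with 24 sites of which 18, in 10 genes, were early. Of 12 giant sarcomere genes, 5 did (Mybpc1, Neb, Ttn, Ryr1 and Myom1), with 9 sites, all early. Glycolysis and phosphate transfer had 4 of 14 (Ak1, Eno3, Ldha and Aldoa), while oxidative phosphorylation and extracellular matrix had 0 of 12 each. Over all genes, 280 of 15747 with reads in either library (1.78%) had one, or 13.8% of the 2034 with a Prefix model in either. These lists differ from the other genes in read depth, which was not matched.

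In the filament genes the shares were small. Myh4, the fast myosin heavy chain of type IIb fibres, had 4 early ends at exon boundaries, with 26, 18, 17 and 2 reads in replicate 1 and 1 each in replicate 2, so nearly all of these reads came from replicate 1. Atp2a1, the calcium pump of fast fibres, ended at its distal end with 948 reads (0.657%) in replicate 1 and 327 (0.825%) in replicate 2 through chains that annotation does not hold, and 45 and 18 through a second last exon. Its most abundant early ends were not shared: the same chain of 8 exons ended 759 bases apart, with 470 reads in replicate 1 and 269 in replicate 2. Actn3, the fast alpha-actinin, had 47 (0.577%) and 29 (0.681%) reads in replicates 1 and 2 at an end 7 bases from the distal one.

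Genes with early ends known from textbooks were also examined. Of 12, 11 had reads and Ttn alone had shared sites, at the end of the retained-intron transcript Ttn-207, with 6 and 4 reads in replicate 1 and 2 and 1 in replicate 2. Of 23 genes for 3′ end processing and U1, only Cstf2 had one, with 1 read in each library and 18 bases between AATAAA and the end. Cstf3, whose intronic polyadenylation is described in vertebrates, and Pcf11 had none.

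The end of a chain was also compared directly. Of the Prefix chains, 373 were Prefix in both libraries, and their 3′ ends were equal to the base in 253 and within 25 bases in 293. The other 80 (21.4%) ended farther apart, at a median of 1013 and at most 4786 bases. Fam120aos had 13 reads in replicate 1 and 23 in replicate 2 on one chain, 86.7% and 95.8% of the gene, with ends 618 bases apart. Luc7l2, a splicing factor gene, had ends 1549 bases apart. Since a model has a single end for all its reads, such a pair can hold more ends than the files list.

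Prefix shares of gene reads were then tested between the libraries, with Fisher's exact test (two-sided) adjusted by Benjamini-Hochberg over all 18146 gene and class pairs in genes with at least 20 reads in each library. Genes were called at an adjusted p under 0.05 where the shares also lay 10 percentage points or more apart. Of 985 genes tested for Prefix, 10 were called (1.02%), 7 higher in replicate 1 (0.711%) and 3 higher in replicate 2 (0.305%). Over all gene and class pairs 8.5% were called, 3.78% higher in replicate 1 and 4.72% higher in replicate 2, so the Prefix share of calls does not exceed the background. The median difference, replicate 1 minus replicate 2, was 0.355 points over the 985 Prefix rows and 0.0935 points over all pairs. Of the gene lists, calcium handling had 2 of 10 tested genes called (Srl and Trdn, median 0.0647 points), giant sarcomere genes 1 of 8 (Ttn, median 0.256 points) and filament genes 0 of 16 (median 0.0109 points).

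Muscle genes stood among those higher in replicate 1. Srl, which encodes the calcium-binding sarcalumenin, had 2887 of 5233 reads (55.2%) as Prefix in replicate 1 and 0 of 1695 in replicate 2, which allows a share of up to 0.177%. Tmem65, an inner mitochondrial membrane protein, had 189 of 319 in replicate 1 and 0 of 93 in replicate 2, which allows up to 3.23% (59.2 points, Fisher's exact test, adjusted p = 2.63e-28). Trdn had 487 of 981 and 328 of 2182 (34.6 points, Fisher's exact test, adjusted p = 9.28e-87). Ehbp1l1 had 155 of 570 and 14 of 256 (21.7 points, Fisher's exact test, adjusted p = 5.2e-13), and Dus1l, a tRNA dihydrouridine synthase, had 30 of 87 and 0 of 46, which allows up to 6.52% (34.5 points, Fisher's exact test, adjusted p = 1.04e-05). AC149090.1, a gene known by its clone name, had 21 of 80 and 5 of 194 (23.7 points, Fisher's exact test, adjusted p = 4e-07). Models of TALON's Genomic class were listed at its shared end with 33 reads in replicate 1 and 181 in replicate 2. Without that class the gene fell below the read minimum and was not tested. Ttn, the giant spring of the sarcomere, had 37 of 239 and 3 of 149 (13.5 points, Fisher's exact test, adjusted p = 0.000159).

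Higher in replicate 2 were Farsb, Emid1 and Pofut2. Farsb, a subunit of phenylalanyl-tRNA synthetase, had 0 of 56 reads in replicate 1, which allows up to 5.36%, and 17 of 48 in replicate 2 (-35.4 points, Fisher's exact test, adjusted p = 7.45e-06). Emid1 had 0 of 22 in replicate 1, which allows up to 13.6%, and 8 of 23 in replicate 2 (-34.8 points, Fisher's exact test, adjusted p = 0.0367), a call that was lost with every gene of at least 1 read tested (Fisher's exact test, adjusted p = 0.0764). Pofut2 had 4 of 54 and 20 of 50 (-32.6 points, Fisher's exact test, adjusted p = 0.0018). Among the genes with high early shares, Pdlim7 (Fisher's exact test, adjusted p = 0.101), Sec62 (0.166), Son (0.259) and Synpo (0.715) were not called, and the adjusted p of Phf10 and Bmp1 was 1.

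The calls that rest on 0 reads in a library followed the class name. For Srl the chain that was Prefix in replicate 1 carried 876 reads in replicate 2 under the class of new combinations of known splice sites, and its end lay 5 bases away. The Prefix chain of Dus1l had 17 reads of that class in replicate 2, and that of Farsb, which was Prefix in replicate 2, had 14 in replicate 1. The chains of Tmem65 and Emid1 were classed by new splice sites in the other library, with 53 reads in replicate 2 and 7 reads in replicate 1. The ends of these 4 chains were the same in both libraries. When a chain that is Prefix in either library was counted in both, 5 genes were called, all among the 10: Trdn, AC149090.1, Ehbp1l1, Ttn and Pofut2. The others lost their calls, with 3.49 points for Srl, 2.26 for Tmem65, -2.47 for Dus1l, -10.4 for Farsb and -2.96 for Emid1. Of these, Dus1l changed sign. AC149090.1 kept its call with the Genomic reads named above still counted.

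Single end sites gave a like picture. Over 12065 end sites of all classes, 18.6% were called by the same rule, 8.37% higher in replicate 1 and 10.3% higher in replicate 2. Over 160 Prefix sites 13 were (8.12%), 8 higher in replicate 1 (5%) and 5 higher in replicate 2 (3.12%). Here too the Prefix share of calls does not exceed the background.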

How the data were processed

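Per the file headers, TALON's transcript tables and GTF files on mm10 were deposited for each library, with read counts per model that the authors did not normalize and the class of each model. The labels name RNA input of 2 micrograms and spike-ins. No source used here names the aligner or how the cDNA was primed. TALON builds 1 model per gene and intron chain, so a model has 1 end for all its reads.

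Prefix models were read from the tables and their ends from each library's GTF. Ends of a gene with the same last-exon start were joined by single linkage at 25 bases. Annotated exons, ends and stop codons come from GENCODE M21 on mm10, and sequences from its transcripts placed by their exons, so intronic windows were not read. Shares carry Wilson 95% intervals, which cover counting error only, since without molecular identifiers several reads can come from 1 molecule. Library differences used Fisher's exact test with Benjamini-Hochberg adjustment over the whole table; the procedure was tested on simulated data.

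Genes were named by rule: the 15 shared sites with most reads, the 10 with the highest lower share in genes of at least 50 reads, the 5 largest called differences in each direction, and list members with a shared site. The genes with at least 10% in both libraries, Slc25a23, Jph1, Mef2c, Eif2s2 and the chains with distant ends were chosen after their values were seen. The members and lists were chosen with earlier results of these data known. Python 3.11.15, pandas 2.3.3, NumPy 2.4.6, SciPy 1.17.1 and matplotlib 3.10.9 were used. Alternatives were another tolerance, read minimum, denominator, test and class rule.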

Additional observations from a re-analysis of the deposited data

Results flagged for a closer look

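Prefix models were also found outside the annotated genes. At loci that the annotation does not hold, replicate 1 had 8 Prefix reads in 7 models and replicate 2 had 26 in 5 models, of which 1 model held 20. Both counts lie above the 3 reads that a count of 0 allows, and these reads enter no comparison of the report. The spike-in RNAs had no Prefix model in either library.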

How the results depend on the processing

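No paired analysis was possible because both libraries belong to 1 group. Leaving out a library gives no shared site and no test; the Prefix share of gene reads then ranged from 0.325 to 0.733%, and the share of Prefix reads in shared sites from 34.8 to 61.7%. Counting only starts of annotated chains moved the mean Prefix share to 0.212%. Shared sites numbered 131 with at least 2 reads, 37 with at least 5, and 140 with those near an annotated end left out, while tolerances of 10, 50 and 100 bases gave 319, 334 and 342. With a chain that is Prefix in either library counted in both, an alternative added after seeing the data, the mean share of Prefix reads in shared sites was 71.5%, 5 genes and 8 end sites were called, and Dus1l turned to -2.47 points. Without Genomic models, 637 gene and class pairs were called over all classes. A minimum of 50 gene reads left 6 called Prefix end sites and 1302 over all classes. The cause of these moves was not tested. Depth limits these counts, since 77.3% and 77.2% of models in replicates 1 and 2 had 1 read.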

Other observations

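Nexn, which encodes the actin-binding Z-disc protein nexilin, had 5 shared ends. The one in its 3′ UTR held 12 of 389 reads (3.08%) in replicate 1 and 6 of 611 (0.982%) in replicate 2, and the other 4, at exon boundaries or transcript ends upstream, held 1 to 3 reads in replicate 1 and 1 to 4 in replicate 2. Hfe2, the muscle hemojuvelin, had 18 of 553 reads (3.25%) in replicate 1 and 8 of 359 (2.23%) in replicate 2 at the end of a 3′ UTR. These genes were chosen after their values were seen.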
